A study of Homo sapiens with 8 samples.

Results

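The EGF family comprises secreted growth factors and the receptor tyrosine kinases that bind them. The 9 genes described here are the ligand genes TGFA, HBEGF, EREG, AREG, BTC, EPGN and NRG1 and the receptor genes EGFR and ERBB3. They were chosen by name, with earlier results of these data known. Every probe set that the array annotation assigns to 1 of them was used. Of the 9, 8 had a probe set, 39 probe sets in all, out of 18239 genes named on the array. AREG was not analysed here, since the annotation used pairs no probe set with it. Of the 8, 5 were tested: TGFA, HBEGF, EREG, NRG1 and EGFR. Testing required a value above 4.41 on 2 or more arrays, which 13002 genes reached, and 19 of the 39 probe sets passed the same filter. BTC, EPGN and ERBB3 did not pass.

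The data come from 8 Affymetrix arrays of total RNA from human breast cancer cells, in 4 groups of 2 arrays. The groups are 231BrM cells with doxycycline, 231BrM cells without it, SKBrM3 cells with doxycycline and SKBrM3 cells without it. Per the labels a short hairpin that targets MET, a receptor tyrosine kinase, is present in all 4 groups and is switched on by doxycycline, which was given at 100 ng (no volume is stated) for 48 h. The names are those of brain-metastatic derivatives of MDA-MB-231, a mesenchymal-like triple-negative line, and SK-BR-3, a luminal line with amplified ERBB2. No group received doxycycline without the hairpin, so effects of the drug and of the knockdown cannot be told apart. The labels do not say whether the replicates were separate cultures, and the p-values may then reflect technical spread alone.

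Most EGF family ligands are made as membrane-anchored precursors and released by metalloproteases of the ADAM family, after which they act on the same cell or its neighbours. TGFA, AREG and EPGN bind EGFR, HBEGF, BTC and EREG bind EGFR and ERBB4, and NRG1 binds ERBB3 and ERBB4. Binding makes receptors pair and phosphorylate each other, which drives the RAS-ERK and PI3K pathways. Several ligand genes are themselves induced by ERK signalling, and EGFR signalling is well known in triple-negative breast cancer.

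The hairpin's target was lower on every doxycycline array. MET had 5.85 and 5.35 on the 231BrM doxycycline arrays, against 9.45 and 9.26 on the 231BrM control arrays (log2 values). It had 5.76 and 5.71 on the SKBrM3 doxycycline arrays, against 9.25 and 9.20 on the SKBrM3 control arrays. The SKBrM3-labelled arrays did not show the profile that the label's parent line is known for. Of 12 tested luminal and ERBB2-amplicon markers, 5 were higher in 231BrM controls and 2, PGAP3 and FOXA1, were higher in SKBrM3 controls. Between these groups 39.7% of all genes were called in either direction. ERBB2 itself had 6.87 and 6.76 in 231BrM controls, against 6.70 and 6.72 in SKBrM3 controls, and the epithelial cadherin CDH1 did not pass the filter in any group. Vimentin, a mesenchymal marker, averaged 12.89 in 231BrM controls and 12.75 in SKBrM3 controls. Of 10 tested mesenchymal-like markers, though, 5 were higher in 231BrM controls and 0 in SKBrM3 controls, beside the same 39.7%. SPARC, for example, averaged 6.95 in 231BrM controls and 4.21, under the filter level, in SKBrM3 controls. The name SKBrM3 is therefore used below as a label alone. On 231BrM doxycycline replicate 1 the 3' signal of the actin control probe sets exceeded the 5' signal by 1.24 on the log2 scale (0.46 to 0.59 elsewhere), a known sign of shorter or degraded RNA. For the tested family genes the 231BrM changes are also given without it. That leaves 1 array in its group, whose spread is then assumed to be that of the other groups.

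The sequences that lie just before the transcription starts of TGFA, HBEGF and EREG, the ligand genes that fell with doxycycline in SKBrM3 (TGFA in 231BrM as well), are shown to let their composition be compared. They are the 250 bases upstream of the start, 5′ to 3′ on the gene's strand, from RefSeq's GRCh38.p14 promoter table. NRG1 was left out by the settings of the search, and 7 of the 9 genes had a window. The windows are chr2:70553827-70554076 (minus strand) for TGFA, chr5:140346604-140346853 (minus strand) for HBEGF and chr4:74364895-74365144 (plus strand) for EREG. Capitals mark matches to the motifs listed after the sequences.
TGFA: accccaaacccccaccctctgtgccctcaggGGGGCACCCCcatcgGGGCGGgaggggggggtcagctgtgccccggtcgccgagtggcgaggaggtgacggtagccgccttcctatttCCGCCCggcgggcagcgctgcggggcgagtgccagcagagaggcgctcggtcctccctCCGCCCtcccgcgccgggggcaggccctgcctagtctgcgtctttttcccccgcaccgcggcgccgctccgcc
HBEGF: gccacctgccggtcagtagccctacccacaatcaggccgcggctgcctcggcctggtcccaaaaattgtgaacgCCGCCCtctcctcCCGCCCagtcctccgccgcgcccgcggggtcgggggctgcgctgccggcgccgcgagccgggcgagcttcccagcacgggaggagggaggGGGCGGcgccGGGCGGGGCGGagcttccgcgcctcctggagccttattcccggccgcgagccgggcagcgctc
EREG: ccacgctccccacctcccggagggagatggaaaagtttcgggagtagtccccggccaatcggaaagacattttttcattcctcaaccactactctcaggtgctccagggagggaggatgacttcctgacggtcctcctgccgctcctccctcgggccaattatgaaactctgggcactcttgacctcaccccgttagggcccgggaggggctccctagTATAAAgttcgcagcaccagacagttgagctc

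The motifs searched were the AP-1 site (TGANTCA), the cAMP response element (TGACGTCA), the Sp1 GC box (GGGCGG), the NF-kB site and the CArG box, each on both strands, and TATAAA on the gene's strand. The TGFA and HBEGF windows were GC-rich (75.6% and 76.4% G and C, against a median of 58.0% over 35116 windows of that length) and held 3 and 5 GC boxes, of which 1 pair in HBEGF shares a base. A GC box was found in 42.6% of all windows. The EREG window had 58.0% G and C, no GC box, and a TATAAA from base -32 to -27 relative to the start, a match found in 6.8% of all windows. Its chromosomal neighbours EPGN and AREG also had TATAAA, both from base -29 to -24. The TGFA window held 1 match to the NF-kB site, found in 9.96% of all windows, which does not overlap its GC boxes. No AP-1, cAMP response element or CArG match lay in any of the 3 windows. A second TGFA start listed in the table had no match to any of the motifs. These matches describe the letters alone.

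**Figure D1:**
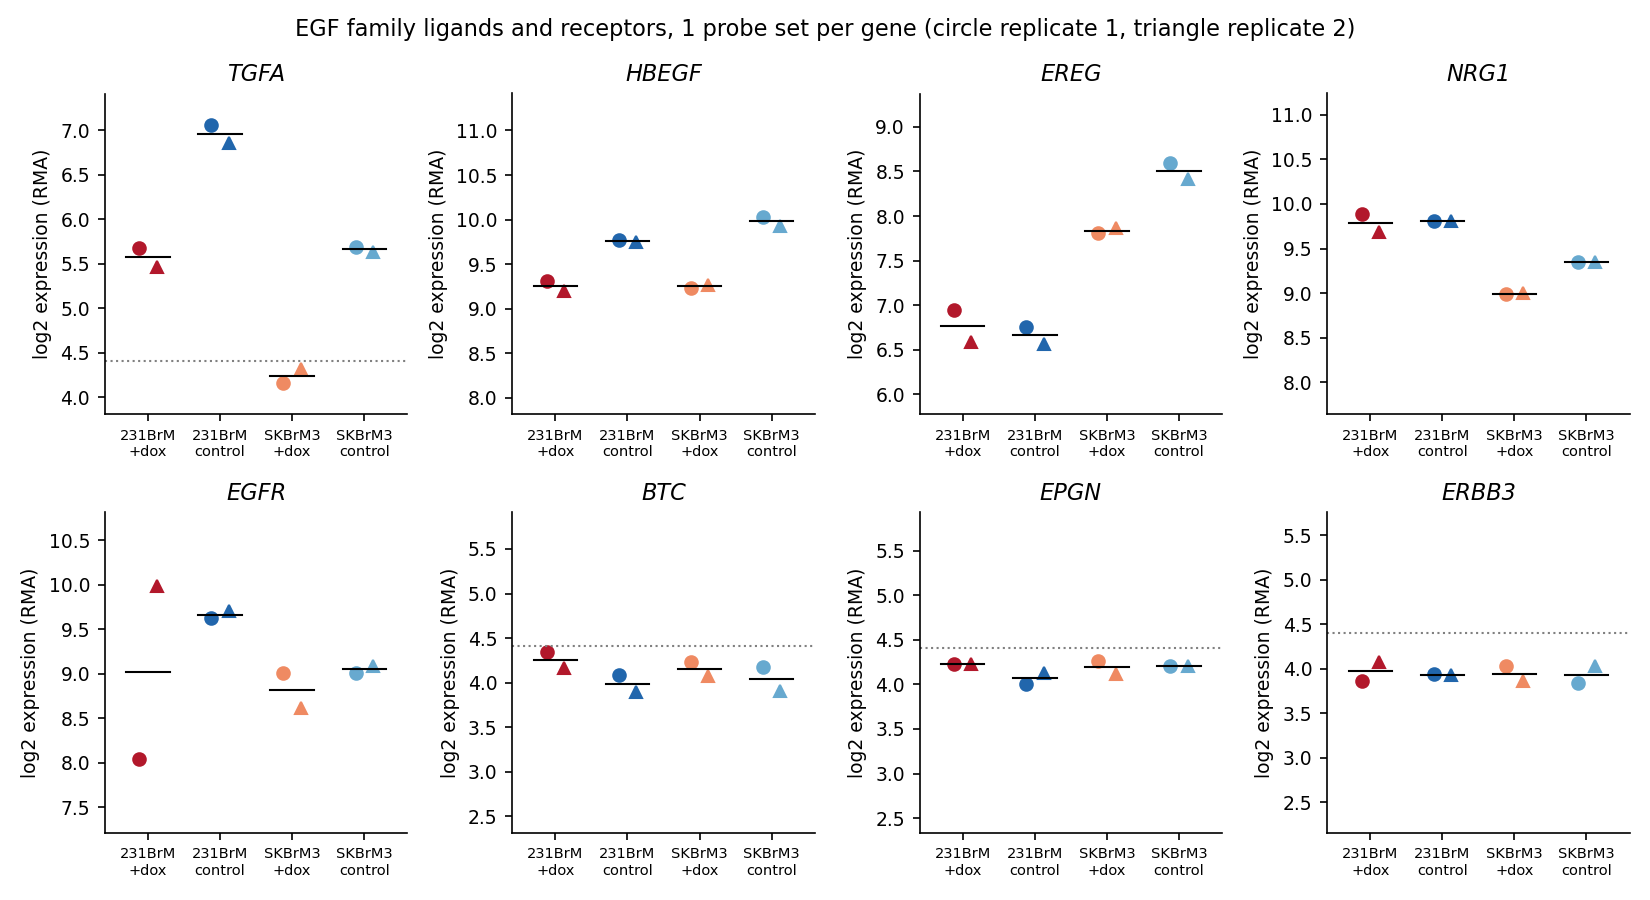
Log2 expression of the probe set used for each of the 8 genes, by group (doxycycline left of control in each line), with circles for replicate 1, triangles for replicate 2 and a line at the mean of 2 arrays. Every panel spans the same number of log2 units, and the dotted line is the filter level of 4.41. TGFA and HBEGF lie lower with doxycycline in both lines, and the 231BrM doxycycline arrays lie at 8.04 and 9.99 for EGFR.

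TGFA, which encodes transforming growth factor alpha, was lower with doxycycline in both lines. It had 5.68 and 5.46 on the 231BrM doxycycline arrays, against 7.06 and 6.86 on the 231BrM control arrays. It had 4.16 and 4.32 on the SKBrM3 doxycycline arrays, against 5.69 and 5.63 on the SKBrM3 control arrays. The groups did not overlap in either line, and the SKBrM3 control arrays lay about where the 231BrM doxycycline arrays did. The log2 change was -1.39 in 231BrM (standard error 0.11, limma adjusted p = 0.00312) and -1.42 in SKBrM3 (standard error 0.11, limma adjusted p = 0.000518), which is 2.62-fold and 2.68-fold lower (n = 2 per group). Both SKBrM3 doxycycline values lie under the filter level, so that fold is limited by low signal. Without 231BrM doxycycline replicate 1 the change in 231BrM was -1.50 (limma adjusted p = 0.0017), from 1 array in that group. The call in 231BrM was lost without 231BrM control replicate 1 (limma adjusted p = 0.0552). The fit of the 4 231BrM arrays alone did not give it either (limma adjusted p = 0.122). The 2 changes differed by 0.03 (231BrM minus SKBrM3, 95% interval from -0.32 to 0.38).

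The other 3 TGFA probe sets stayed under the filter level on all 8 arrays and were not tested. Of these, 11745160_s_at had 3.58 and 3.83 on the 231BrM doxycycline arrays, against 4.20 and 4.34 on the 231BrM control arrays. In SKBrM3 it had 3.54 and 3.69 with doxycycline, against 3.90 and 4.05 in controls. Both doxycycline arrays lay below both control arrays for 3 of the 4 TGFA probe sets in 231BrM and for 4 of 4 in SKBrM3. Over the 39 probe sets of the 8 genes this was so for 10 in 231BrM and 21 in SKBrM3, and the reverse, both doxycycline arrays above both control arrays, for 7 and 2. Over all 45259 probe sets that name 1 gene the doxycycline arrays lay below for 12.3% in 231BrM and 28.4% in SKBrM3, and above for 24.4% and 24.8%.

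HBEGF encodes heparin-binding EGF-like growth factor, whose membrane-bound form also signals to neighbouring cells. It had 9.31 and 9.20 on the 231BrM doxycycline arrays, against 9.77 and 9.75 on the 231BrM control arrays. It had 9.23 and 9.27 on the SKBrM3 doxycycline arrays, against 10.03 and 9.93 on the SKBrM3 control arrays. The doxycycline arrays of both lines lay between 9.20 and 9.31, below all 4 control arrays. In SKBrM3 HBEGF fell by 0.73 on the log2 scale (standard error 0.08, limma adjusted p = 0.00296). In 231BrM the change was -0.51 (standard error 0.08, limma adjusted p = 0.0792), which does not pass. The change in 231BrM was -0.57 without 231BrM doxycycline replicate 1 (limma adjusted p = 0.0262). The call in SKBrM3 was lost without SKBrM3 doxycycline replicate 1 (limma adjusted p = 0.0569).

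The second HBEGF probe set, 11755981_a_at, gave changes of -0.81 in 231BrM and -0.82 in SKBrM3. It had 7.33 and 7.77 on the 231BrM doxycycline arrays, against 8.28 and 8.43 on the 231BrM control arrays, and the lower of the doxycycline values is from replicate 1. In SKBrM3 it had 7.79 and 7.85 with doxycycline, against 8.63 and 8.65 in controls. In the fit over all 28866 probe sets this probe set passed in SKBrM3 (limma adjusted p = 0.0465) and not in 231BrM (limma adjusted p = 0.238). The difference between the lines in the effect on HBEGF was 0.22 in the probe set used (95% interval from -0.04 to 0.48) and did not pass (limma adjusted p = 0.513).

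EREG encodes epiregulin. It had 6.94 and 6.59 on the 231BrM doxycycline arrays, against 6.76 and 6.56 on the 231BrM control arrays, and these groups overlap. It had 7.81 and 7.86 on the SKBrM3 doxycycline arrays, against 8.59 and 8.41 on the SKBrM3 control arrays, and these groups do not. The log2 change was 0.10 in 231BrM (95% interval from -0.19 to 0.39, limma adjusted p = 0.788) and -0.66 in SKBrM3 (standard error 0.13, limma adjusted p = 0.0295). The change in SKBrM3 missed the threshold in 6 of 8 fits that leave out 1 array, with limma adjusted p-values from 0.059 to 0.201. It passed without either 231BrM doxycycline array, with a limma adjusted p of 0.00377 without replicate 1. The effects differed by 0.76 between the lines (231BrM minus SKBrM3, 95% interval from 0.35 to 1.18), which did not pass over all genes (limma adjusted p = 0.246). The change in 231BrM was -0.07 without 231BrM doxycycline replicate 1.

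The EREG probe sets disagreed in 231BrM. Probe set 11732718_at had 4.75 and 5.12 on the 231BrM doxycycline arrays, against 5.43 and 5.42 on the 231BrM control arrays, a change of -0.49 (limma adjusted p = 0.523). The third that passes the filter, 11732720_a_at, had a log2 difference of -0.02 there. In SKBrM3 these probe sets gave -0.89 and -0.56. However, 11732720_a_at was above the filter level only on the SKBrM3 control arrays (4.55 and 4.90), so its fall there is no separate support. In the fit over all probe sets 11732718_at passed in SKBrM3 (limma adjusted p = 0.034), while the probe set used for the gene had a limma adjusted p of 0.0699 there.

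NRG1 encodes neuregulin 1, the ligand of ERBB3 and ERBB4. It had 9.89 and 9.68 on the 231BrM doxycycline arrays, against 9.81 on both 231BrM control arrays. It had 8.99 and 9.0 on the SKBrM3 doxycycline arrays, against 9.35 on both SKBrM3 control arrays. The groups did not overlap in SKBrM3 and overlapped in 231BrM. The log2 change was -0.03 in 231BrM (95% interval from -0.23 to 0.17) and -0.36 in SKBrM3 (95% interval from -0.55 to -0.16). Neither passed (limma adjusted p = 0.926 and 0.0677). Without 231BrM doxycycline replicate 1 the change in 231BrM was -0.14, and the change in SKBrM3 passed (limma adjusted p = 0.0109). Of the 8 NRG1 probe sets, 6 had both SKBrM3 doxycycline arrays below both SKBrM3 control arrays, where 28.4% of all probe sets did. In 231BrM 1 of 8 did, about the 12.3% of all probe sets there. The next probe sets by mean, 11740346_a_at and 11740347_x_at, had log2 differences of -0.39 and -0.31 in SKBrM3. In 231BrM they had -0.04 and -0.31, and for 11740347_x_at both doxycycline arrays lay below both control arrays there.

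Of the 5 genes tested, 1 fell in 231BrM (TGFA), where 0.162% of all 13002 genes were lower at a limma adjusted p under 0.05. In SKBrM3 3 fell (TGFA, HBEGF and EREG), where 2.28% of all genes were lower. None of the 5 rose in either line. The genes were chosen with earlier results of these data known, so these counts and the medians below are no independent test. Without 231BrM doxycycline replicate 1, 2 fell in 231BrM (TGFA and HBEGF) and 4 in SKBrM3 (NRG1 as well). Calls over all genes rose too in that fit, to 0.615% in 231BrM and 12.5% in SKBrM3 in either direction (80 and 1631 genes, against 21 and 446 with all arrays). The median log2 change of the 5 was -0.51 in 231BrM, against 0.05 over all genes, and -0.66 in SKBrM3, against 0.01 over all genes. Of their 19 probe sets that were tested, 1 was lower in 231BrM and 4 in SKBrM3, where 0.0658% and 1.17% of all probe sets tested were. For the difference between the lines 0 of the 5 genes passed by limma, while 2, EREG and NRG1, had an unadjusted p under 0.05, as 11.2% of all genes did. Over all genes 0.0231% passed that comparison, and 0% of the probe sets did.

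**Figure D2:**
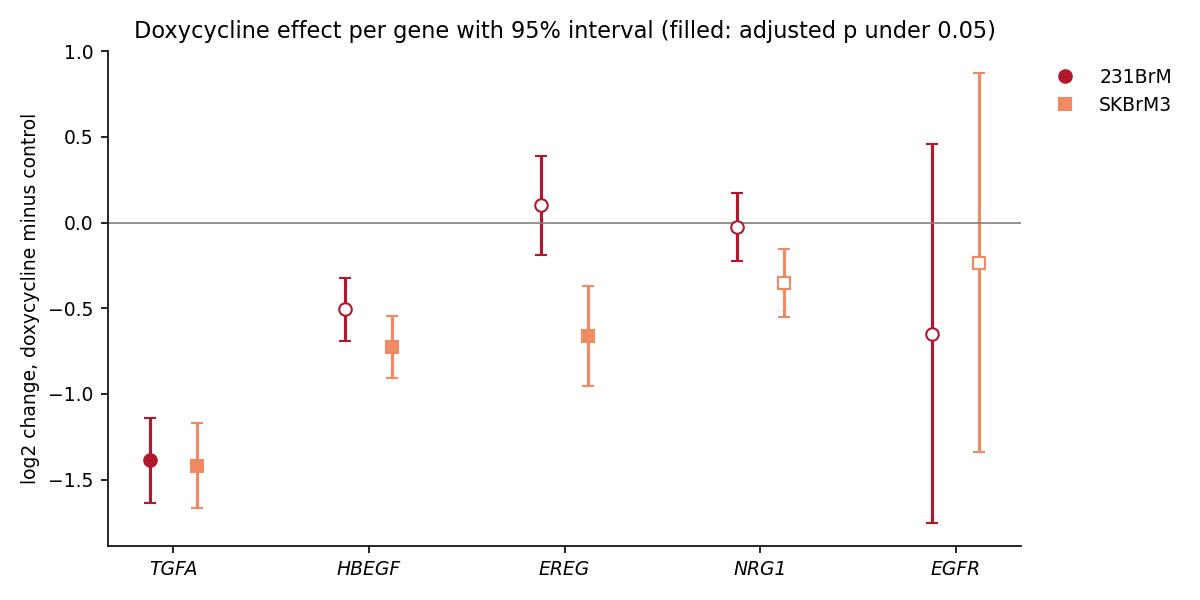
Log2 change (doxycycline minus control) of the 5 tested genes, with circles for 231BrM, squares for SKBrM3 and bars for the 95% interval of the limma fit (2 arrays per group). Filled symbols passed a limma adjusted p of 0.05. TGFA changed by -1.39 and -1.42, and the intervals of EGFR span 0 in both lines. The EGFR interval in SKBrM3 also takes in the spread of the 231BrM doxycycline arrays.

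**Figure D3:**
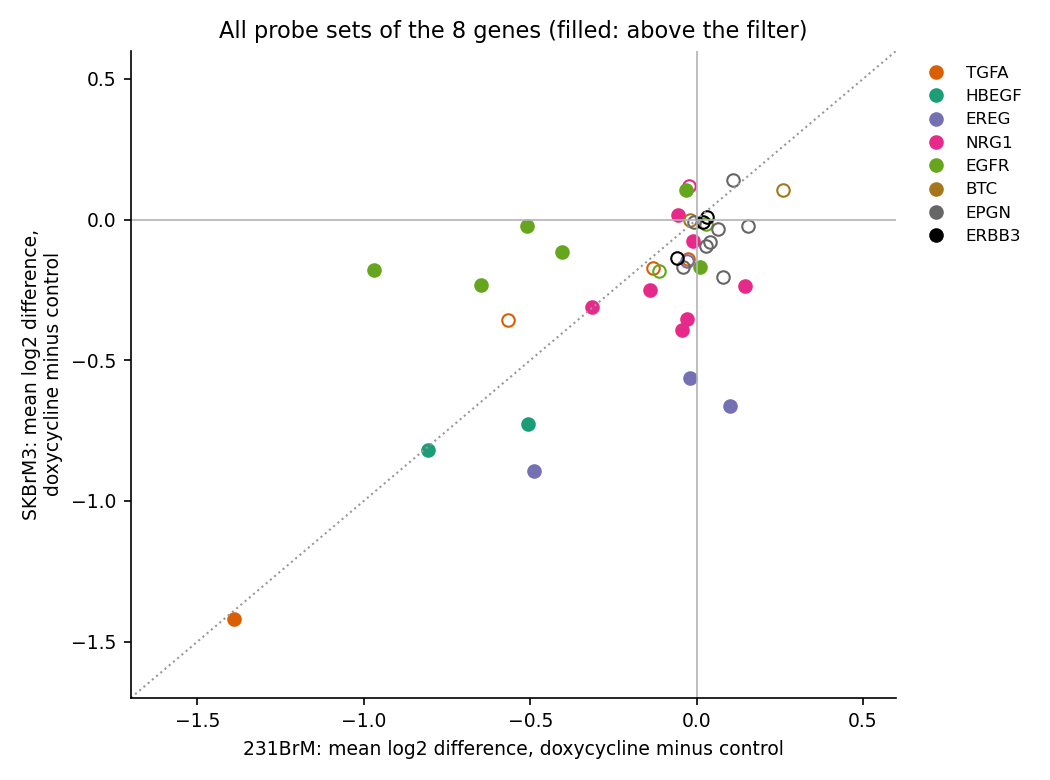
Mean log2 difference (doxycycline minus control) in 231BrM (x) and SKBrM3 (y) for the 39 probe sets of the 8 genes, filled where the probe set passed the filter, with a dotted line of equal change. The TGFA and HBEGF probe sets above the filter lie near the line, and those of EREG and several of NRG1 lie below it. EGFR probe sets are spread to the left, down to -0.97 in 231BrM. The 4 furthest left are those over 1 log2 unit lower on 231BrM doxycycline replicate 1 than on replicate 2.

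EGFR, the shared receptor of most of these ligands, was measured by 8 probe sets, 6 of which passed the filter. The probe set used had 8.04 and 9.99 on the 231BrM doxycycline arrays, against 9.62 and 9.70 on the 231BrM control arrays. One doxycycline array thus lay below both controls and the other above both. It had 9.01 and 8.62 on the SKBrM3 doxycycline arrays, against 9.01 and 9.09 on the SKBrM3 control arrays. The log2 change was -0.65 in 231BrM (95% interval from -1.75 to 0.46) and -0.23 in SKBrM3 (95% interval from -1.34 to 0.87). Neither passed (limma adjusted p = 0.652 and 0.831). The low value is from replicate 1, the array with raised 3' signal, and without it the change in 231BrM was 0.33 (limma adjusted p = 0.458). Without replicate 2 instead, it was -1.62, a value that rests on replicate 1 alone in that group. The 4 groups share 1 estimate of the spread, so the SKBrM3 interval is also widened by the 231BrM doxycycline arrays. In the 4 SKBrM3 arrays alone the change of -0.23 did not pass either (limma adjusted p = 0.259).

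Of the 6 EGFR probe sets, 4 were over 1 log2 unit lower on 231BrM doxycycline replicate 1 than on replicate 2, with differences of -1.95 (11725104_a_at), -1.23 (11733760_a_at), -1.94 (11742247_a_at) and -2.37 (11751983_a_at). Over all probe sets tested 2.73% differed by over 1 log2 unit between these arrays, and 778 of those 787 were lower on replicate 1. The other 2 EGFR probe sets did not show this. Probe set 11725102_at had 7.85 and 7.65 on the 231BrM doxycycline arrays, against 7.88 and 7.61 on the 231BrM control arrays. Probe set 11725103_s_at had 8.87 and 8.88 on the 231BrM doxycycline arrays, against 8.97 and 8.85 on the 231BrM control arrays. Their log2 differences were 0.01 and -0.03 in 231BrM and -0.17 and 0.11 in SKBrM3, and none of these passed. Where each probe set lies along the transcript was not examined, and the part of RNA length in these values was not tested.

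**Figure D4:**
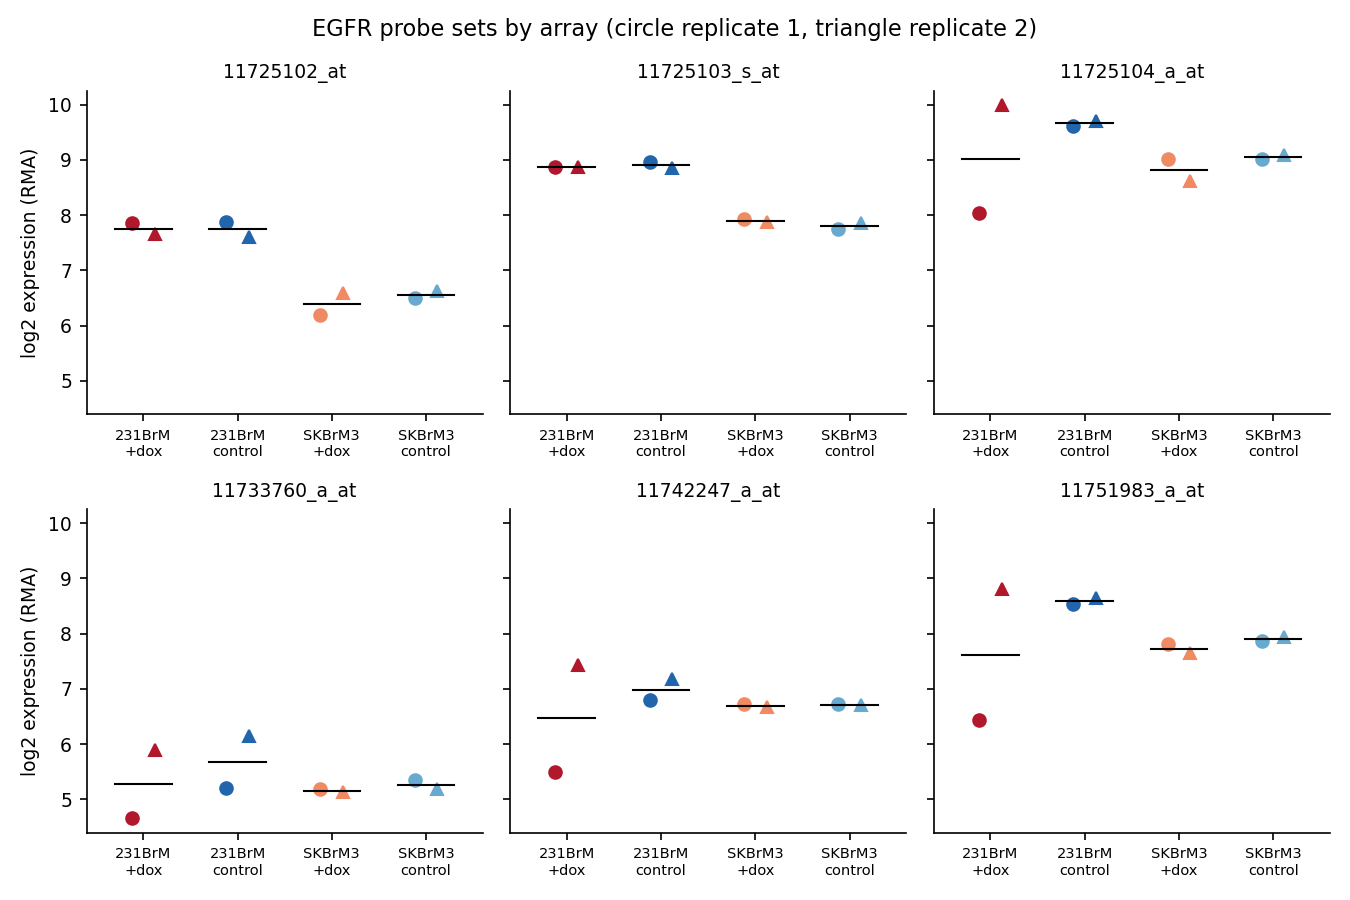
Log2 expression of the 6 EGFR probe sets that passed the filter, by group, with circles for replicate 1, triangles for replicate 2 and a line at the mean. In 4 panels 231BrM doxycycline replicate 1 minus replicate 2 runs from -2.37 to -1.23, and in the panels of 11725102_at and 11725103_s_at they lie within 0.20 of each other.

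ERBB3, the kinase-impaired receptor that binds NRG1, was at low values in all 4 groups. Its 3 probe sets ranged from 3.23 to 4.22 over the 8 arrays, under the filter level. This holds for the SKBrM3-labelled arrays too, although SK-BR-3 is known for ERBB3 expression. The ligands BTC (betacellulin, 2 probe sets) and EPGN (epigen, 8 probe sets) ranged from 3.29 to 4.34 and from 2.94 to 4.26. The arrays' scanner background was not analysed here, so a transcript at these values may be present at a low level. The highest probe set of BTC had 4.34 and 4.16 on the 231BrM doxycycline arrays, against 4.09 and 3.89 on the 231BrM control arrays, with no test.

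Without doxycycline the lines differed in several of these genes, and the differences ran both ways. TGFA was 1.30 log2 units higher in 231BrM than in SKBrM3 (standard error 0.11, limma adjusted p = 4.34e-05), and NRG1 was 0.46 higher (limma adjusted p = 0.0032). EREG was lower in 231BrM, with a log2 difference of -1.84 (standard error 0.13, limma adjusted p = 1.6e-05), and EREG probe set 11732718_at gave -1.14. The remaining tested one, 11732720_a_at, gave -0.90, but it passed the filter through the SKBrM3 control arrays alone. HBEGF differed by -0.22 (limma adjusted p = 0.0579). These 3 calls among 5 genes stand beside 39.7% of all genes called between the lines, so their number is no result about the family.

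EGFR differed between the untreated lines by 0.61 in the probe set used (231BrM minus SKBrM3, limma adjusted p = 0.349). Without 231BrM doxycycline replicate 1, which takes its wide spread out of the fit, the same difference passed (limma adjusted p = 0.002). The probe sets with closer replicates gave 1.19 (11725102_at, limma adjusted p = 0.00145) and 1.11 (11725103_s_at, limma adjusted p = 0.000165). Probe set 11725103_s_at had 8.97 and 8.85 in 231BrM controls, against 7.74 and 7.86 in SKBrM3 controls. Of the 19 probe sets tested, 6 were higher and 3 lower in 231BrM, and 33.4% of all probe sets were called. The EGFR, NRG1 and TGFA probe sets called were higher in 231BrM, and the EREG probe sets called were lower. Of the EREG probe sets, 11732720_a_at passed the filter through the SKBrM3 control arrays alone.

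The other family genes were mostly at low values. EGF, NRG2, NRG3, NRG4 and ERBB4 did not pass the filter, and ERBB2, the ligandless partner receptor, did. ERBB2 had 6.89 and 6.76 on the 231BrM doxycycline arrays, against 6.87 and 6.76 on the 231BrM control arrays. It had 7.11 and 6.92 on the SKBrM3 doxycycline arrays, against 6.70 and 6.72 on the SKBrM3 control arrays. Its log2 changes of 0.01 and 0.30 did not pass (limma adjusted p = 0.968 and 0.124).

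Of 10 genes of ligand shedding and trafficking, 9 were tested and 0 passed by limma in either line, while 1 in 231BrM and 2 in SKBrM3 were higher at an unadjusted p under 0.05. Over all genes 9.89% in 231BrM and 20.2% in SKBrM3 had such a p in either direction, so these counts are near the background. Their median log2 changes were 0.10 in 231BrM and 0.13 in SKBrM3, against 0.05 and 0.01 over all genes. ADAM17, the main protease that releases TGFA, HBEGF and EREG, had a log2 difference of 0.11 in 231BrM and -0.02 in SKBrM3. By smallest p, ADAM19 had 0.36 and ADAM10 had 0.30 in 231BrM, and ADAM15 had 0.37 and RHBDF1, an inactive rhomboid that helps ADAM17 mature, had 0.28 in SKBrM3. Other probe sets of ADAM19 gave -0.05 and -0.06 in 231BrM.

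Of 15 negative regulators of the receptors 13 were tested, and 0 passed in 231BrM and 1 in SKBrM3, where 2.28% of all genes were lower. At an unadjusted p under 0.05 there were 1 in 231BrM and 4 in SKBrM3, 1 of the 4 higher, beside 9.89% and 20.2% of all genes. The median log2 changes were -0.07 in 231BrM and -0.06 in SKBrM3, against 0.05 and 0.01 over all genes. The gene that passed in SKBrM3 was ERRFI1, whose product MIG6 binds and inhibits the EGFR kinase domain and which is induced by EGFR signalling. ERRFI1 had 9.42 and 9.55 on the SKBrM3 doxycycline arrays, against 10.06 and 10.26 on the SKBrM3 control arrays, and fell by 0.68 (standard error 0.10, limma adjusted p = 0.009). It had 10.01 and 9.98 on the 231BrM doxycycline arrays, against 10.38 and 10.26 on the 231BrM control arrays, a change of -0.33 (limma adjusted p = 0.374), or -0.34 without doxycycline replicate 1. The call in SKBrM3 was lost without SKBrM3 control replicate 2 (limma adjusted p = 0.094) or doxycycline replicate 1 (limma adjusted p = 0.116). SOCS3 had a log2 difference of -0.20 in 231BrM and did not pass.

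Of 16 receptor-proximal adaptors and enzymes 13 were tested and 0 passed in either line, with 4 in 231BrM and 3 in SKBrM3 at an unadjusted p under 0.05, beside 9.89% and 20.2% of all genes (medians -0.02 and 0.05, against 0.05 and 0.01 over all genes). The smallest p-values were those of PLCG1 (-0.59) and PIK3R3 (-0.43) in 231BrM and of PTPN11 (-0.45), the phosphatase SHP2, and GAB1 (0.36) in SKBrM3. With 231BrM doxycycline replicate 1 left out, PIK3R3 passed in 231BrM (-0.63, limma adjusted p = 0.0218). In that fit 3 genes of this list and 3 of the shedding list passed in SKBrM3, where 12.5% of all genes did.

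Of 20 genes known to respond to EGFR and ERK signalling, 0 passed in 231BrM and 2 fell in SKBrM3, where 2.28% of all genes were lower. At an unadjusted p under 0.05 there were 4 in 231BrM and 9 in SKBrM3, 2 of the 9 higher. Over all genes 9.89% in 231BrM and 20.2% in SKBrM3 had such a p in either direction. The median log2 changes were -0.02 in 231BrM and -0.12 in SKBrM3, against 0.05 and 0.01 over all genes. EGR1, a zinc-finger immediate early factor, had 6.35 and 6.67 on the SKBrM3 doxycycline arrays, against 7.34 and 7.25 on the SKBrM3 control arrays (log2 change -0.78, limma adjusted p = 0.0123). Its other probe sets that pass the filter ran from -0.82 to -0.09. IER3 had 10.68 and 10.82 with doxycycline, against 11.27 and 11.33 in SKBrM3 controls (log2 change -0.55, limma adjusted p = 0.0126). FOSL1, an AP-1 subunit, had 10.11 and 9.83 on the SKBrM3 doxycycline arrays, against 9.27 and 9.34 on the SKBrM3 control arrays, and its log2 difference of 0.66 did not pass (limma adjusted p = 0.0557). In 231BrM the smallest p-values were those of JUNB (-0.43) and DUSP4 (-0.31), and neither passed. The ERK phosphatase DUSP6 had a log2 difference of -0.04 in 231BrM and -0.12 in SKBrM3, and neither passed. Without 231BrM doxycycline replicate 1 the count in SKBrM3 was 8 (6 lower and 2 higher, FOSL1 among them), where 12.5% of all genes passed, and leaving out an SKBrM3 array gave 0 or 1.

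EREG, AREG, EPGN and BTC lie on chromosome 4 in a row that begins with CXC chemokine genes. Between CXCL8 and BTC, both included, the RefSeq gene table lists 14 protein-coding genes, of which 13 were named on the array and 6 tested. In SKBrM3 5 of the 6 fell, where 2.28% of all genes were lower: CXCL8 (-2.26), CXCL1 (-2.15), CXCL3 (-2.03), CXCL2 (-2.34) and EREG (-0.66). MTHFD2L, which lies between CXCL2 and EPGN, had a log2 difference of -0.18 and did not pass. In 231BrM CXCL8 (-0.98), CXCL1 (-0.67) and CXCL2 (-1.12) fell, where 0.162% of all genes were lower. CXCL3 had a log2 difference of -1.04 there that did not pass (limma adjusted p = 0.118), EREG of 0.10 and MTHFD2L of 0.07. Without 231BrM doxycycline replicate 1 CXCL3 passed (-1.36, limma adjusted p = 0.00263) and MTHFD2L stood at -0.06. These falls were known when the genes were chosen, and the table was used for order alone.

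The genes whose 8 values ran closest to a ligand gene were found by the distance between log2 values, each gene centred on its own mean. For HBEGF they were PFN2 (distance 0.09, Pearson r = 1.00), RYBP (0.22, r = 0.97) and RDH11 (0.24, r = 0.97), where the median distance of all genes was 1.06. For TGFA they were SGMS2 (0.76, r = 0.97), RRM2B (0.92, r = 0.97) and TSPAN12 (1.00, r = 0.95), with a median of 2.79. For EREG they were SCML1 (0.55), RELN (0.55) and PJA1 (0.57), with a median of 2.16. The 8 arrays share 4 conditions, so these likenesses describe group means for the most part. PFN2, for example, had log2 differences of -0.48 in 231BrM and -0.66 in SKBrM3, beside -0.51 and -0.73 for HBEGF. Other near genes had unlike doxycycline changes. SGMS2 had -0.66 in 231BrM, beside -1.39 for TGFA. PJA1 had -0.24 in SKBrM3, which did not pass (limma adjusted p = 0.399), beside -0.66 for EREG.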

How the data were processed

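The deposited values are log2 expression values, 1 per probe set and array, which the authors made with RMA, per the submitters' processing notes. RMA corrects background, normalizes by quantiles and summarises the probes of a set. Its version, the chip definition and the build were not given in the sources used here. Quantile normalization hides a change of total RNA. Of 49386 probe sets, 45259 name 1 gene, 1327 several and 2707 are unnamed here, and 93 are controls. Of those that name 1 gene, 45178 had a gene ID found in the RefSeq gene table and took its symbol, whether or not it differed.

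For each gene the probe set with the highest mean was used. Values above 4.41, the 40th percentile, on at least 2 arrays were required. limma 3.58.1 (R 4.3.3) fitted 4 group means over 8 arrays (4 residual and 4.59 prior degrees of freedom; median standard error of a doxycycline effect 0.0968), two-sided, with Benjamini-Hochberg adjustment over all 13002 genes, and separately over 28866 probe sets. Precision is limited by the number of arrays. The fit was tested on simulated data. Probe set, filter, normalization, array weights, moderation, replicate block and left-out arrays were varied.

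Members and lists were chosen with earlier results of these data known. Named from the lists were up to 3 called genes by smallest p, or otherwise 2, in each doxycycline comparison, besides the chromosome 4 neighbours and the 3 nearest genes per called member. ADAM17, DUSP6 and FOSL1 were named after their values were seen.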

Additional observations from a re-analysis of the deposited data

Results flagged for a closer look

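Probe set 11740544_a_at of NRG1 was the 1 tested probe set of these genes whose arrays moved in opposite directions in the lines. It had 6.25 and 6.09 on the 231BrM doxycycline arrays, against 6.04 and 6.01 on the 231BrM control arrays. It had 6.07 and 5.64 on the SKBrM3 doxycycline arrays, against 6.11 and 6.08 on the SKBrM3 control arrays. The effects differed by 0.38 log2 units (231BrM minus SKBrM3). In the fit over all probe sets this difference had an unadjusted limma p of 0.0932 and a limma adjusted p of 0.597, so it did not pass. Over all probe sets that name 1 gene, the doxycycline arrays lay above both controls for 24.4% in 231BrM. In SKBrM3 they lay below both controls for 28.4%. The share that did both was not counted, so the flag is no result about the gene.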

How the results depend on the processing

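The precision is limited by 2 arrays per group and by the spread that 231BrM doxycycline replicate 1 brings into the shared fit, and values near 4.41 or below carry little signal. Where arrays are left out below, the highest counts in 231BrM and for the difference between the lines come without 231BrM doxycycline replicate 2. Replicate 1, the array with raised 3' signal, is then alone in its group. Over the 5 genes tested, the count that passed was 1 in 231BrM and 3 in SKBrM3, 0 for the difference between the lines and 3 between the untreated lines. In 231BrM it was 2 with cyclic loess, with trend and robust moderation and with the mean of all probe sets, and 0 in the 4 arrays of that line alone. Leaving out single arrays gave 0 to 3 in 231BrM, 1 to 4 in SKBrM3, 0 to 2 for the difference and 3 to 5 between the untreated lines, where the 4 control arrays alone gave 5. Among the probe sets of these genes, 1 passed in 231BrM and 4 in SKBrM3, against 0 and 9 with array weights and 0 and 9 in the 4 arrays of the line alone. With trend and robust moderation 2 passed in 231BrM. Leaving out single arrays gave 0 to 8 probe sets in 231BrM, 0 to 9 in SKBrM3, 0 to 4 for the difference and 6 to 13 between the untreated lines.

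Directions that turned belong to changes that did not pass. EGFR in 231BrM (-0.65) ran from -1.62 to 0.33 without single arrays, and its difference between the lines (-0.42) from -1.39 to 0.56, both positive without 231BrM doxycycline replicate 1. EREG in 231BrM (0.10) was -0.11 with the mean of all probe sets and ran from -0.074 to 0.27 without single arrays, negative without 231BrM doxycycline replicate 1 or control replicate 2. NRG1 in 231BrM (-0.03) ran from -0.14 to 0.079, positive without doxycycline replicate 2. The TGFA difference (0.03) was -0.00584 with the mean of all probe sets and ran from -0.075 to 0.14. ERBB2 in 231BrM (0.01) was -0.013 with cyclic loess and ran from -0.050 to 0.078. The cause was not tested.

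Over all genes, 21 were called in 231BrM, against 11 with array weights, 32 with cyclic loess, 45 with trend and robust moderation, 1 in the line alone and 3 to 1650 without single arrays. In SKBrM3 446 were called, against 1604 with array weights, 1248 in the line alone and 52 to 1631 without single arrays. For the difference 3 were called, against 13 with trend and robust moderation and 0 to 473 without single arrays, and between the untreated lines 5167, against 3324 to 6576. Of ERK-responsive genes 2 were called in SKBrM3, against 4 or 5 with cyclic loess, the mean of all probe sets, trend and robust moderation or the line alone, and 7 with array weights. With the replicate number as a replicate block, 16 genes were called in 231BrM and 389 in SKBrM3, and no count of the 5 genes changed. Deviations of same-numbered arrays correlated at 0.239 in 231BrM and -0.0123 in SKBrM3. Each line gives only 1 such value, so whether same-numbered arrays were paired or shared a batch cannot be told from this.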

Other observations

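Genes of the pathway also differed between the lines without doxycycline, where 39.7% of all genes were called. Those named here were chosen after their values were seen. Of 9 genes of ligand shedding and trafficking, 4 were higher in 231BrM and 0 lower: ADAM17 (0.51), ADAM9 (0.58), NRDC (0.57), which encodes nardilysin, an enhancer of HBEGF shedding, and ADAM15 (0.31). Of 13 negative regulators 4 were higher and 1 lower, among them LRIG1, which promotes degradation of EGF family receptors, at 1.37 (limma adjusted p = 0.000145) and CBL, a ubiquitin ligase for EGFR, at 0.90. Of 13 adaptors and enzymes 4 were higher and 0 lower, with SHC1, an adaptor of EGFR, at 1.08, and leaving out single arrays gave 3 to 9 calls (9 without either 231BrM doxycycline array). All 13 had a positive difference, where the median over all genes was -0.05. Of 20 ERK-responsive genes 7 were higher and 2 lower, with ETV5 at 1.12 and DUSP5 at -0.76. In each list the share of genes called was near the 39.7% of all genes, so these counts are no result about the lists.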
